A study of Homo sapiens with 10 samples.

Results

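Transcripts of 46 splicing genes were measured in the human megakaryoblastic line MEG-01, which derives from a leukemia, after transfection with the platelet microRNA miR-1225-3p. The genes were chosen by name and role and comprise 10 genes of the SR protein family, 17 genes of heterogeneous nuclear ribonucleoproteins (hnRNPs), 6 genes of the SF3A and SF3B subunits of the U2 snRNP, 5 genes of U2AF, PTBP1 and TRA2, and 8 genes of U1A and the Sm proteins. All 46 had a probe above background, out of 17379 genes that could be tested, and 72 of their 73 probes were kept. Total RNA came from 5 cultures given 200 nM of miR-1225-3p precursor and from 5 cultures given 200 nM of a negative control precursor of scrambled sequence, in each case by nucleofection and with RNA taken after 24 hours. Sample titles describe the control cultures as scrambled transfected, whereas another label calls them untreated, and the titles were followed. The replicates are labelled as biological and the experiments were run at the same time in a single cell line, so the spread between arrays is that of parallel cultures. A transfected culture also contains cells that took up little precursor.

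Pre-mRNA splicing removes introns in a large particle, the spliceosome, which is built on each intron from small nuclear ribonucleoproteins (snRNPs). U1 snRNP binds the start of an intron, U2AF marks its end and recruits U2 snRNP to the branch site, and the Sm proteins form the ring that holds the RNA of most snRNPs. SR proteins mostly promote and hnRNPs mostly repress the use of nearby exons, and the balance between them sets many alternative splicing choices. In blood, SF3B1, SRSF2 and U2AF1 are known as genes that are recurrently mutated in myelodysplastic disease. Genes of both families are themselves known to be alternatively spliced, so that probes of a single gene can read different transcripts.

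The transfected microRNA is shown because it is the difference between the groups that the sample titles name. Its mature form is encoded on the minus strand at chr16:2090195-2090216 of GRCh38.p14 in RefSeq, is 22 bases long and is written 5′ to 3′ with the seed, bases 2 to 8, in capitals.
hsa-miR-1225-3p: uGAGCCCCugugccgcccccag
Transcript sequences were not used here, so matches to this seed in the 46 genes were not looked for.

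Signals were read in a single Cy3 channel on Agilent SurePrint G3 8x60K arrays and are given as log2 normalized signal, in which a difference of 1 is a doubling. Spots well above background made up between 41.95% and 61.18% of spots other than controls on the 10 arrays. The arrays lay on 2 slides, and miR-1225-3p replicate 5 did not follow its group. Among 23 members that differed between the groups, this array was the nearest of the 5 miR-1225-3p arrays to the scrambled mean for 22. For the members called lower, the median deviation from the scrambled mean was -0.80, -1.25, -1.35 and -1.33 on miR-1225-3p replicates 1 to 4 and -0.08 on replicate 5, against -0.17 to 0.12 on the scrambled arrays. For the members called higher it was 0.83, 0.75, 0.77 and 0.83 on replicates 1 to 4 and 0.25 on replicate 5, against -0.07 to 0.06 on the scrambled arrays. Counts of calls are therefore given with and without this array, and the plot of fold changes by role shows every member both ways. The array stood out in values of these same members. Leaving it out narrows the spread, so calls and adjusted p-values without it are descriptive. Of 14 megakaryocytic markers 10 were well above background, among them ITGA2B, ITGB3, GATA1 and TAL1, while others, such as PF4, VWF and GP1BB, were not or had no matched probe. Their summed linear signal was 7892 to 9715 on the miR-1225-3p arrays and 11318 to 12954 on the scrambled arrays, and 4 of 10 tested fell. Of 8 lymphocyte markers 4 were well above background in at least 1 group, 3 in each, with sums of 3996 to 6168 and 5130 to 11077, and 1 of 4 tested rose and none fell. CD3G, MS4A1 and CD2 were among those not above background. Of 8 monocyte and neutrophil markers 6 were well above background, with sums of 750.1 to 1201 and 608 to 774.2, LYZ and S100A9 were not or had no matched probe, and 3 of 6 tested rose. The part of these shifts in the results for the splicing genes was not tested.

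**Figure D1:**
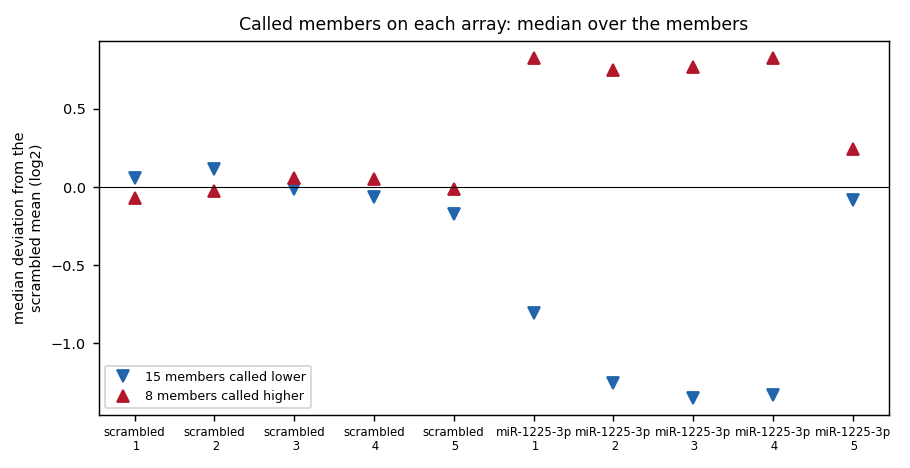
Median deviation of the called members from their scrambled mean (log2, y axis) on each of the 10 arrays (x axis), with 15 members called lower as downward triangles and 8 called higher as upward triangles. The miR-1225-3p replicates 1 to 4 lay away from zero in both sets, and replicate 5 lay at -0.08 and 0.25.

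The first question was how many of the splicing genes differed between the groups. At an adjusted p under 0.05 in limma, 23 of 46 members (50%) were called, against 35.0% of all genes tested. Of these, 15 fell (32.6%, against 18.1% of all genes) and 8 rose (17.4%, against 17.0%). The largest falls were in HNRNPL and HNRNPUL1 and in TRA2A, whose probe passed the background flag on 1 of 5 miR-1225-3p arrays, and SNRPD3, SNRPD2 and SF3A1 rose the most. A fold over 2 together with the call was met by 8 members (17.4%), the same share as over all genes (17.4%). The groups did not overlap for 6 members (13.0%, against 12.7% of all genes), of which SRSF7, SRSF10, HNRNPA3, SF3A3 and SNRPD2 were higher and SF3B1 was lower. The median log2 fold change, which is the mean miR-1225-3p minus the mean scrambled log2 signal and is called a log2 difference for single genes, was -0.19 over the members and -0.06 over all genes tested. The 23 members not called had log2 fold changes between -0.55 and 0.52. In RNA of whole cultures, fewer cells with a transcript and less of it per cell cannot be told apart. The members' probes were brighter than most, with a median log2 signal of 11.34 against 7.56 over all genes, and the part of brightness in these counts was not tested.

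Without miR-1225-3p replicate 5, 30 members were called (65.2%, against 55.4% of all genes), and these included all 23. The further 7 were SRSF2, HNRNPU and SNRPB, which were lower, and HNRNPH3, TRA2B, SNRPE and SNRPG, which were higher. HNRNPU and TRA2B each had a second probe of the other sign. In a fit over all kept probes and all 10 arrays it was called (0.66, adjusted p = 0.0359, and -0.62, adjusted p = 0.0279). Without replicate 5 the groups did not overlap for 27 members (58.7%, against 45.8% of all genes), 12 higher and 15 lower. Leaving out other arrays lowered the count over members and over all genes. Without miR-1225-3p replicates 1 to 4 it was 15, 7, 8 and 12 members (32.6%, 15.2%, 17.4% and 26.1%), against 24.4%, 12.3%, 13.0% and 20.3% of all genes. Without scrambled replicates 1 to 5 it was 13, 13, 12, 12 and 17 members (28.3%, 28.3%, 26.1%, 26.1% and 37.0%), against 19.4%, 19.3%, 19.5%, 17.7% and 27.1% of all genes. Within slide 1, which does not hold miR-1225-3p replicate 5, 16 members were called (against 25.9% of all genes), 6 higher and 10 lower. Within slide 2, which holds it, limma called 0 members and 0 genes, with 1 member and 1220 genes at an unadjusted p under 0.05. All 23 called members had the same sign of difference within both slides, but they were called on these same arrays, so this is not independent support.

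The split between rises and falls depended on how the arrays were scaled. With the 75th percentile of each array as its reference, 17 members were higher (against 26.3% of all genes) and 8 lower (against 14.9%), and with quantile normalization 9 were higher (against 20.9%) and 10 lower (against 14.4%). The 75th percentile moved the median of all genes from -0.06 to 0.16 and that of the members from -0.19 to 0.31. By role, the members higher and lower with the 75th percentile were 2 and 1 of the SR proteins, 5 and 4 of the hnRNPs, 2 and 1 of the SF3A and SF3B subunits, 1 and 2 of U2AF, PTBP1 and TRA2, and 7 and 0 of U1A and the Sm proteins. The sign of all 23 called members stayed the same under these scalings and without normalization, and 16 stayed called under the 75th percentile. The 7 that did not were falls, in HNRNPH1, SF3B2, U2AF2, HNRNPF, SRSF4, HNRNPK and SF3B3.

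**Figure D2:**
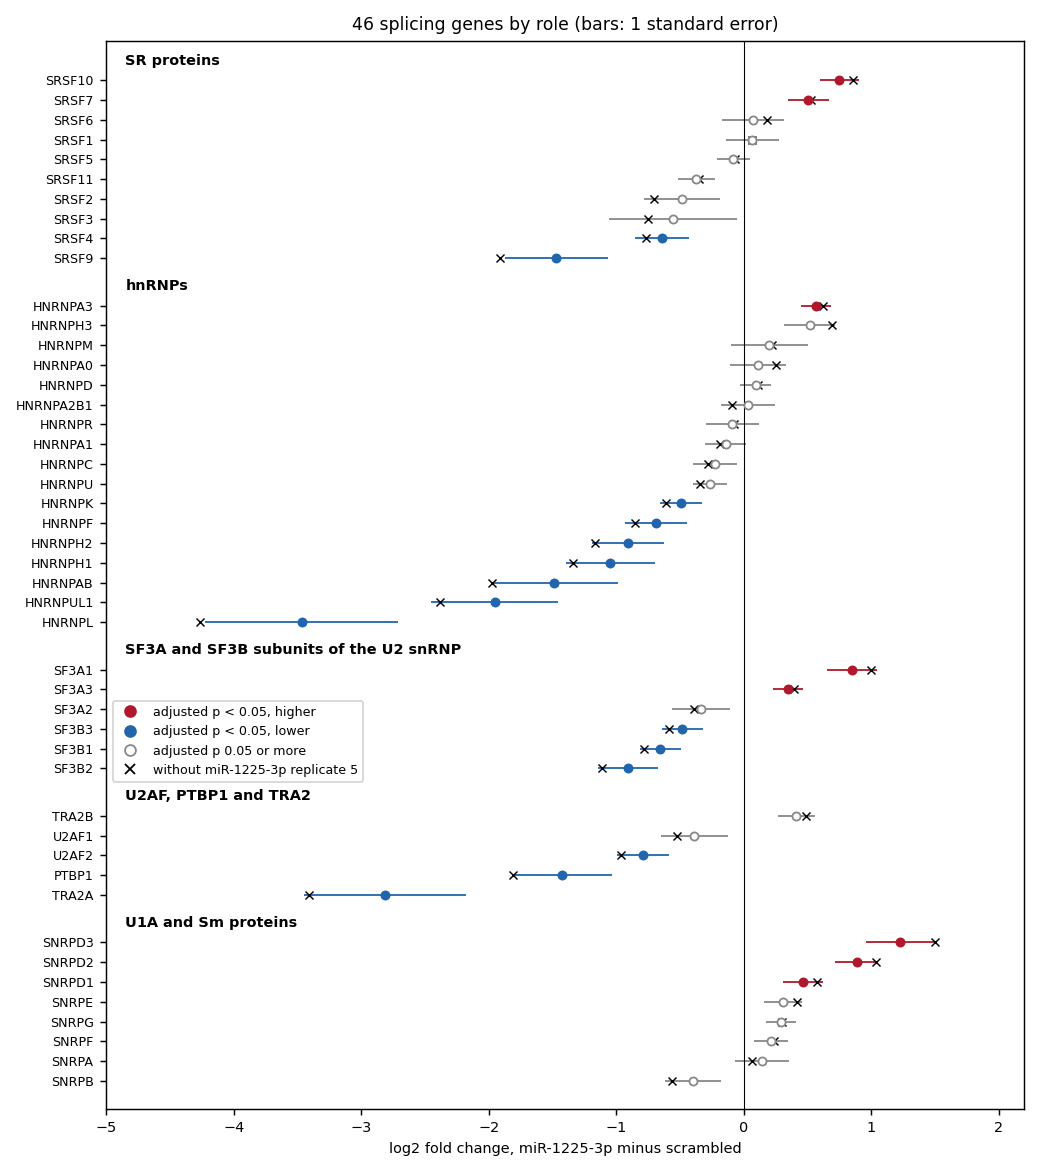
Log2 fold change, miR-1225-3p minus scrambled (x axis), of each of the 46 members (y axis, by role), as points with bars of 1 standard error, filled where the adjusted p was under 0.05, and as crosses without miR-1225-3p replicate 5. Values ran from -3.47 for HNRNPL to 1.23 for SNRPD3, and crosses lay farther from zero than the points for HNRNPL (-4.26) and SNRPD3 (1.50).

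SR proteins bind exons through RNA recognition motifs and recruit the splicing machinery through domains rich in arginine and serine. Of the 10 genes, 2 rose (20%, against 17.0% of all genes) and 2 fell (20%, against 18.1%). SRSF9 fell by 1.47 on the log2 scale (standard error 0.41, adjusted p = 0.0244), a 2.77-fold difference. The log2 signal of SRSF9 was 9.16, 9.10, 9.22, 9.21 and 11.39 on miR-1225-3p replicates 1 to 5 and 10.94, 10.99, 11.13, 11.20 and 11.18 on scrambled replicates 1 to 5. The first 4 miR-1225-3p values lay below every scrambled value, and replicate 5 lay above them all. Without that array the log2 difference of SRSF9 was -1.91 (adjusted p = 7.78e-06), a value taken after the array was seen to stand apart. SRSF4 fell by 0.64 (standard error 0.21, adjusted p = 0.0407).

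SRSF10, known as a repressor of splicing when it loses its phosphates, rose by 0.75 on the log2 scale (standard error 0.15, adjusted p = 0.0139). On the miR-1225-3p arrays SRSF10 had log2 signals of 10.87, 10.92, 10.91, 10.94 and 10.35, and on the scrambled arrays of 9.84, 10.002, 10.18, 9.998 and 10.23. The groups did not overlap, with replicate 5 the lowest of the miR-1225-3p arrays. The other 2 probes of SRSF10 had log2 differences of 0.07 and -0.07 and were not called. SRSF7, an SR protein that also acts in mRNA export, rose by 0.51 (standard error 0.16, adjusted p = 0.0347). Across miR-1225-3p replicates 1 to 5 SRSF7 stood at 11.59, 11.28, 11.18, 11.07 and 11.18 (log2 signal), and across the scrambled replicates at 10.42, 10.68, 10.93, 11.06 and 10.68. The 2 groups lay next to each other without overlap, and the second probe of SRSF7 had a log2 difference of -0.21. The other 6 genes were not called, with values from -0.55 for SRSF3 to 0.07 for SRSF6 on their brightest probes. A second probe of SRSF2 fell by 1.20 (standard error 0.34, adjusted p = 0.0263 in a fit over all kept probes). Of the 6 genes, SRSF3 had the widest spread, with an SD of 1.25 over the miR-1225-3p arrays and 0.14 over the scrambled arrays. Log2 signals of SRSF3 were 13.62, 12.18, 11.25, 10.49 and 12.87 after miR-1225-3p and 12.62, 12.49, 12.55, 12.67 and 12.85 after the scrambled precursor, in order of replicate. The miR-1225-3p values of SRSF3 lay on both sides of the scrambled values. The SRSF1 probe passed the scanner's background flag on 4 of 5 arrays in each group.

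Among the hnRNPs, abundant nuclear proteins that coat new transcripts, 7 of 17 fell (41.2%, against 18.1% of all genes) and 1 rose (5.9%, against 17.0%). This split was 4 lower and 5 higher with the 75th percentile and 3 lower and 1 higher with quantile normalization, and the median over the hnRNPs was -0.23, 0.36 and -0.12 in turn. HNRNPL, which binds CA-rich sequences and represses or promotes exons by position, had the largest change of the members and fell by 3.47 on the log2 scale (standard error 0.76, adjusted p = 0.0151), an 11.1-fold difference. Scrambled replicates 1 to 5 gave 12.26, 12.09, 11.70, 11.73 and 11.32 for HNRNPL (log2 signal), and miR-1225-3p replicates 1 to 5 gave 8.39, 7.69, 7.27, 6.86 and 11.54. Replicate 5 lay among the scrambled arrays and the other miR-1225-3p arrays lay far below them. Without replicate 5, again set aside after it was seen to stand apart, the log2 difference of HNRNPL was -4.26 (adjusted p = 3.02e-05). HNRNPL kept its call under the 75th percentile (-3.06, adjusted p = 0.0124).

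HNRNPUL1, a relative of hnRNP U, fell by 1.96 on the log2 scale (standard error 0.50, adjusted p = 0.0198). HNRNPUL1 read 7.89, 7.59, 7.64, 6.73 and 9.59 on miR-1225-3p replicates 1 to 5 and 10.81, 10.11, 9.75, 9.43 and 9.12 on scrambled replicates 1 to 5. The scrambled arrays themselves were spread over more than a log2 unit (SD 0.65). HNRNPAB fell by 1.49 (standard error 0.50, adjusted p = 0.0417). The log2 signal of HNRNPAB was 7.85, 7.38, 7.47, 6.73 and 9.80 on miR-1225-3p replicates 1 to 5 and 8.74, 9.15, 9.62, 9.36 and 9.79 on scrambled replicates 1 to 5. Replicate 5 was the highest of all 10 arrays for HNRNPAB. HNRNPH1, which binds runs of G, fell by 1.05 (standard error 0.35, adjusted p = 0.0421). On the miR-1225-3p arrays HNRNPH1 had log2 signals of 12.52, 11.64, 11.52, 11.12 and 13.18, and on the scrambled arrays of 12.999, 13.01, 12.93, 12.93 and 13.34. The same 4 arrays lay below the scrambled values for HNRNPH1, and replicate 5 lay within them.

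The other hnRNP falls were smaller, at -0.91 for HNRNPH2, -0.69 for HNRNPF and -0.49 for HNRNPK, the last a protein that binds runs of C. HNRNPA3, a member of the A/B group, rose by 0.57 (standard error 0.12, adjusted p = 0.0142). Across miR-1225-3p replicates 1 to 5 HNRNPA3 stood at 13.07, 12.98, 13.03, 12.82 and 12.71 (log2 signal), and across the scrambled replicates at 12.42, 12.36, 12.35, 12.24 and 12.41. The groups did not overlap. The 9 hnRNP genes not called ran from -0.26 for HNRNPU to 0.52 for HNRNPH3 on their brightest probes. In a fit over all kept probes, a second probe was called higher for HNRNPU (0.66, adjusted p = 0.0359) and HNRNPD (0.51, adjusted p = 0.0424). Other probes of HNRNPA2B1 and HNRNPC are given below. Among the 9, HNRNPA1, a general repressor of exons, had a log2 difference of -0.14 (standard error 0.16, adjusted p = 0.491).

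**Figure D3:**
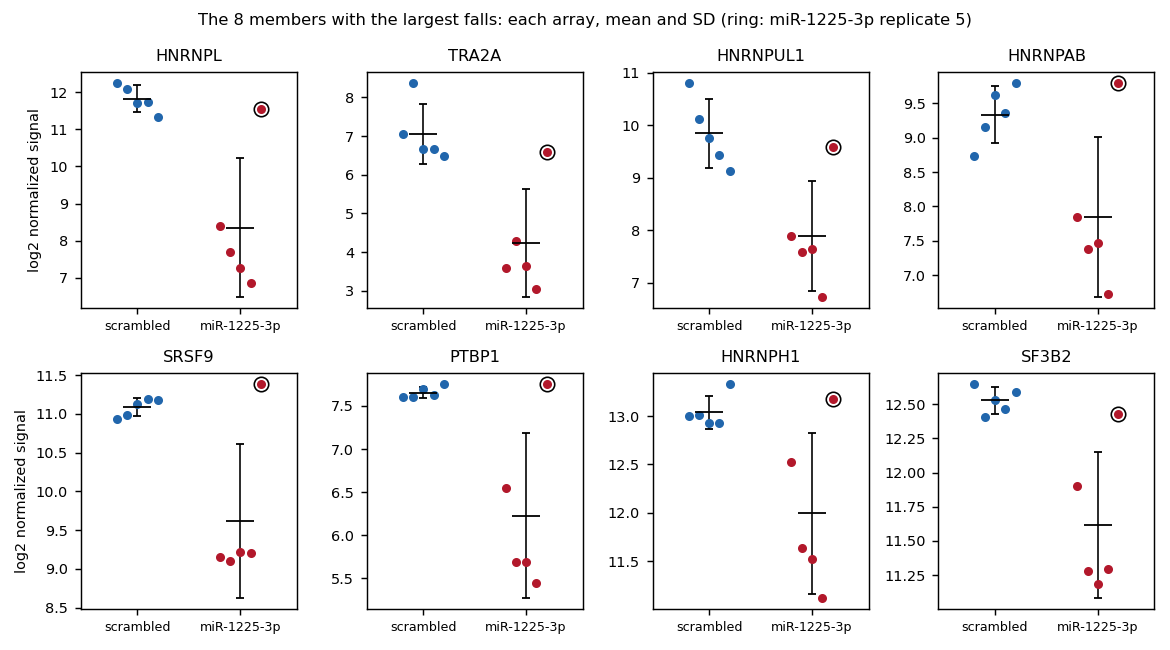
Log2 normalized signal (y axis) on each of the 5 scrambled and 5 miR-1225-3p arrays for the 8 members with the largest falls, with the mean and SD as lines and miR-1225-3p replicate 5 ringed. In all 8 panels the ringed point lay nearer to the scrambled mean than the other 4 points of its group did.

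The U2 snRNP carries SF3A and SF3B, the complexes that hold the branch site of the intron, and their subunits moved in different directions. SF3A1 and SF3A3 rose, SF3B1, SF3B2 and SF3B3 fell, and SF3A2 was not called (-0.34, standard error 0.23, adjusted p = 0.255). Of the 6, 2 rose (33.3%, against 17.0% of all genes) and 3 fell (50%, against 18.1%). Outside the members, the SF3B subunits SF3B6 (0.85, adjusted p = 0.0152), SF3B5 (0.46, adjusted p = 0.0286) and PHF5A (0.37, adjusted p = 0.0465) rose. SF3B4 was not called (-1.10, adjusted p = 0.131), and its probe passed the background flag on 1 of 5 miR-1225-3p and 3 of 5 scrambled arrays. SF3A1 rose by 0.85 on the log2 scale (standard error 0.19, adjusted p = 0.0162). Log2 signals of SF3A1 were 9.14, 9.20, 9.22, 9.35 and 8.46 after miR-1225-3p and 7.97, 7.98, 8.48, 8.28 and 8.42 after the scrambled precursor, in order of replicate. Replicates 1 to 4 lay above all scrambled arrays and replicate 5 lay just inside their range. SF3A3 rose by 0.35 (standard error 0.12, adjusted p = 0.0428). Scrambled replicates 1 to 5 gave 10.93, 10.87, 11.05, 11.02 and 11.17 for SF3A3 (log2 signal), and miR-1225-3p replicates 1 to 5 gave 11.49, 11.33, 11.44, 11.36 and 11.17. The groups of SF3A3 did not overlap, but replicate 5 lay at the upper edge of the scrambled arrays.

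SF3B2, a subunit that contacts RNA near the branch site, fell by 0.91 on the log2 scale (standard error 0.24, adjusted p = 0.0208). SF3B2 read 11.90, 11.28, 11.18, 11.30 and 12.43 on miR-1225-3p replicates 1 to 5 and 12.65, 12.41, 12.53, 12.47 and 12.59 on scrambled replicates 1 to 5. Replicate 5 lay at the level of the scrambled arrays. SF3B1, which clamps the branch site and is mutated in myelodysplasia, fell by 0.66 (standard error 0.16, adjusted p = 0.0184). The log2 signal of SF3B1 was 7.33, 7.15, 6.94, 6.99 and 7.73 on miR-1225-3p replicates 1 to 5 and 7.82, 7.998, 7.87, 7.86 and 7.87 on scrambled replicates 1 to 5. SF3B1 was the only member called lower whose groups did not overlap. SF3B3 fell by 0.48 (standard error 0.16, adjusted p = 0.0413). Under the 75th percentile SF3A1, SF3A3 and SF3B1 kept their calls and SF3B2 (-0.39, adjusted p = 0.0814) and SF3B3 (-0.12, adjusted p = 0.514) did not.

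Of the 5 genes of U2AF, PTBP1 and TRA2, 3 fell (60.0%, against 18.1% of all genes) and none rose (against 17.0%). TRA2A, which binds purine-rich enhancers in exons, fell by 2.82 on the log2 scale (standard error 0.64, adjusted p = 0.0156). On the miR-1225-3p arrays TRA2A had log2 signals of 3.58, 4.29, 3.63, 3.05 and 6.60, and on the scrambled arrays of 7.06, 8.38, 6.67, 6.65 and 6.47. The TRA2A probe passed the scanner's background flag on 5 of 5 scrambled and 1 of 5 miR-1225-3p arrays, so the low values rest on signals near background. Its paralog TRA2B had a log2 difference of 0.41 (standard error 0.15, adjusted p = 0.0514). PTBP1, which binds pyrimidine-rich tracts and silences exons, fell by 1.43 (standard error 0.39, adjusted p = 0.0237). Across miR-1225-3p replicates 1 to 5 PTBP1 stood at 6.55, 5.69, 5.69, 5.44 and 7.76 (log2 signal), and across the scrambled replicates at 7.60, 7.60, 7.69, 7.62 and 7.75. Replicate 5 was the highest of the 10 arrays for PTBP1, while the scrambled arrays had an SD of 0.06. U2AF2, the large subunit that binds the pyrimidine tract before the end of the intron, fell by 0.79 (standard error 0.21, adjusted p = 0.0211). U2AF1, the small subunit that reads the AG at the intron end, had a log2 difference of -0.39 (standard error 0.27, adjusted p = 0.258).

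Among U1A and the Sm proteins 3 of 8 rose (37.5%, against 17.0% of all genes) and none fell (against 18.1%). The 3 were SNRPD1, SNRPD2 and SNRPD3, which encode the D subunits of the Sm ring. SNRPD3 rose by 1.23 on the log2 scale (standard error 0.27, adjusted p = 0.0153), a 2.34-fold difference and the largest rise of the members. Log2 signals of SNRPD3 were 11.81, 11.82, 11.89, 11.67 and 10.42 after miR-1225-3p and 10.35, 10.47, 10.08, 10.39 and 10.18 after the scrambled precursor, in order of replicate. Replicate 5 lay within the scrambled range and the other 4 arrays lay more than a log2 unit above it. SNRPD2 rose by 0.88 (standard error 0.17, adjusted p = 0.0138). Scrambled replicates 1 to 5 gave 14.75, 14.80, 14.82, 14.81 and 14.66 for SNRPD2 (log2 signal), and miR-1225-3p replicates 1 to 5 gave 15.76, 15.79, 15.91, 15.76 and 15.03. All miR-1225-3p arrays lay above all scrambled arrays for SNRPD2.

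SNRPD1 rose by 0.46 on the log2 scale (standard error 0.15, adjusted p = 0.0411). SNRPD1 read 14.03, 14.10, 14.10, 14.33 and 13.59 on miR-1225-3p replicates 1 to 5 and 13.51, 13.56, 13.63, 13.75 and 13.39 on scrambled replicates 1 to 5. Its replicate 5 lay within the scrambled range. The partners in the ring were not called, with log2 differences of 0.31 for SNRPE, 0.29 for SNRPG and 0.21 for SNRPF (adjusted p = 0.120, 0.0753 and 0.228). SNRPB had a log2 difference of -0.40 (adjusted p = 0.164), which was 0.16 under the 75th percentile. SNRPA, which encodes the U1A protein of the U1 snRNP, had a log2 difference of 0.14 (adjusted p = 0.609).

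**Figure D4:**
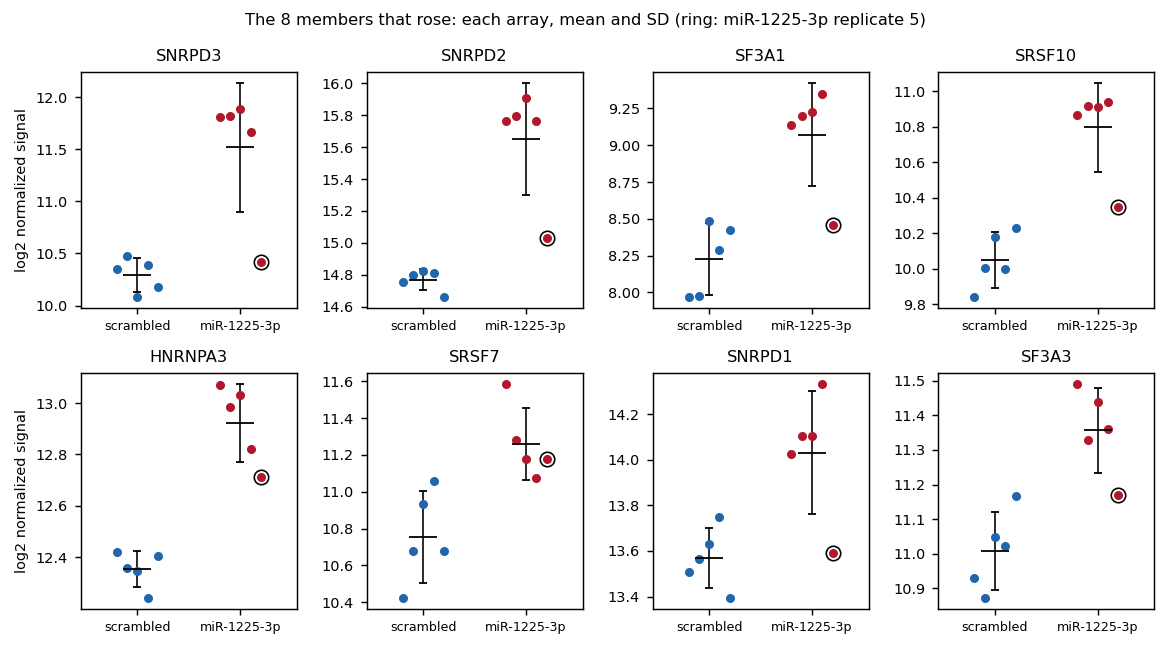
Log2 normalized signal (y axis) on each of the 5 scrambled and 5 miR-1225-3p arrays for the 8 members that rose, with the mean and SD as lines and miR-1225-3p replicate 5 ringed. The groups did not overlap for SRSF7, SRSF10, HNRNPA3, SF3A3 and SNRPD2.

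The second question was whether probes of the same gene gave the same result. Over the 72 kept probes, 33 (45.8%) were called in a fit over all kept probes, against 35.0% of those 20648 probes, 12 higher and 21 lower. Of the 19 members with more than 1 kept probe, 8 had probes of both signs. Probes of 6 members disagreed, meaning that they were called in opposite directions, or that a called probe differed from another by over 1 on the log2 scale. These were HNRNPA2B1, HNRNPA3, HNRNPC, HNRNPH2, HNRNPK and TRA2B. Adjusted p-values in the next paragraphs are from that fit over probes, and where on a transcript each probe lies was not used.

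HNRNPC, which binds U-rich tracts, was the only member with probes called in opposite directions. Its brightest probe had a log2 difference of -0.23 (standard error 0.17, adjusted p = 0.303), a second fell by 1.36 (standard error 0.32, adjusted p = 0.0173) and the third rose by 0.59 (standard error 0.16, adjusted p = 0.0232). The log2 signal of the second probe was 11.71, 11.79, 11.59, 11.05 and 13.06 on miR-1225-3p replicates 1 to 5 and 13.34, 13.34, 13.28, 13.21 and 12.82 on scrambled replicates 1 to 5. On the miR-1225-3p arrays the third probe had log2 signals of 9.71, 9.69, 9.80, 9.81 and 9.22, and on the scrambled arrays of 9.12, 9.002, 9.08, 8.79 and 9.31. Both probes had replicate 5 nearest to the scrambled arrays, and all 3 are annotated to the same RefSeq transcript.

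HNRNPK had the widest gap between called probes. Its brighter probe fell by 0.49 (standard error 0.17, adjusted p = 0.0432) and the other, annotated to another transcript of the gene, fell by 3.09 (standard error 0.87, adjusted p = 0.0264). Across miR-1225-3p replicates 1 to 5 the brighter HNRNPK probe stood at 10.64, 10.42, 10.48, 10.28 and 11.03 (log2 signal), and across the scrambled replicates at 11.24, 11.27, 11.01, 10.97 and 10.84. Log2 signals of the other HNRNPK probe were 9.13, 7.31, 6.46, 5.98 and 11.35 after miR-1225-3p and 11.26, 11.12, 11.19, 10.90 and 11.22 after the scrambled precursor, in order of replicate. Replicates 1 to 4 were lower than all scrambled arrays on both probes. HNRNPH2 fell by 0.91 on its brighter probe (standard error 0.28, adjusted p = 0.0344), and on a probe printed in 10 spots it fell by 1.91 (standard error 0.50, adjusted p = 0.0212). Scrambled replicates 1 to 5 gave 8.30, 8.44, 8.50, 8.47 and 9.02 for the brighter HNRNPH2 probe (log2 signal), and miR-1225-3p replicates 1 to 5 gave 7.74, 7.34, 7.23, 7.22 and 8.66. The HNRNPH2 probe of 10 spots read 7.68, 6.81, 6.01, 5.22 and 8.27 on miR-1225-3p replicates 1 to 5 and 8.64, 8.86, 8.65, 8.78 and 8.63 on scrambled replicates 1 to 5. On the second of these, replicate 5 also lay below every scrambled array.

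HNRNPA2B1, which is known to bind microRNAs as well as pre-mRNA, had a log2 difference of 0.04 on its brighter probe (standard error 0.21, adjusted p = 0.899) and fell by 1.64 on the other (standard error 0.43, adjusted p = 0.0221). The log2 signal of the brighter HNRNPA2B1 probe was 13.01, 12.95, 12.92, 12.75 and 13.54 on miR-1225-3p replicates 1 to 5 and 12.53, 12.74, 13.33, 13.02 and 13.38 on scrambled replicates 1 to 5. On the miR-1225-3p arrays the other HNRNPA2B1 probe had log2 signals of 11.48, 10.94, 10.80, 10.52 and 13.18, and on the scrambled arrays of 13.08, 13.10, 13.12, 12.92 and 12.89. Only the second probe separated replicates 1 to 4 from the scrambled arrays. TRA2B, a splicing activator, showed 0.41 on its brighter probe (standard error 0.15, adjusted p = 0.0530) and fell by 0.62 on the other (standard error 0.18, adjusted p = 0.0279). Across miR-1225-3p replicates 1 to 5 the brighter TRA2B probe stood at 11.53, 11.80, 11.75, 11.91 and 11.37 (log2 signal), and across the scrambled replicates at 10.996, 11.21, 11.29, 11.33 and 11.47. Log2 signals of the other TRA2B probe were 10.37, 10.26, 10.36, 10.23 and 11.001 after miR-1225-3p and 11.31, 11.10, 10.81, 11.19 and 10.90 after the scrambled precursor, in order of replicate. The groups overlapped at replicate 5 on both TRA2B probes. HNRNPA3 had 5 kept probes, from -0.71 (standard error 0.42, adjusted p = 0.195) to 0.57 (standard error 0.12, adjusted p = 0.0150), of which 2 were called and rose.

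**Figure D5:**
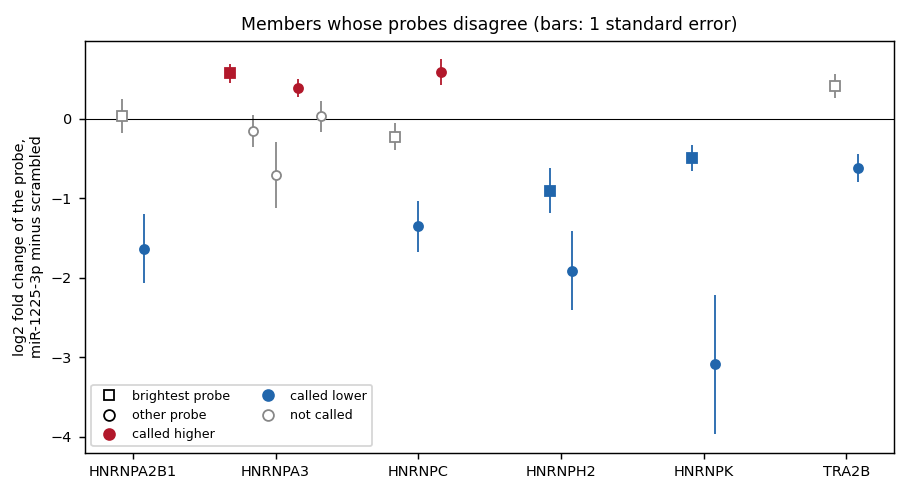
Log2 fold change of each kept probe, miR-1225-3p minus scrambled (y axis), for the 6 members whose probes disagreed (x axis), with bars of 1 standard error, squares for the brightest probe of a gene and filled symbols where the adjusted p was under 0.05. The HNRNPC probes ran from -1.36 to 0.59 and the HNRNPK probes from -3.09 to -0.49.

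The third question was how other genes of the splicing machinery behaved. Of 161 such genes in 7 lists chosen by role, 153 were tested and 70 were called (45.8%, against 35.0% of all genes), 29 higher (19.0%, against 17.0%) and 41 lower (26.8%, against 18.1%), with a median log2 fold change of -0.16. With the 75th percentile 49 were higher (32.0%, against 26.3%) and 26 lower (17.0%, against 14.9%), with a median of 0.15. With quantile normalization 31 were higher (20.3%, against 20.9%) and 28 lower (18.3%, against 14.4%), with a median of -0.02. Without miR-1225-3p replicate 5, 100 were called (65.4%, against 55.4% of all genes), 42 higher and 58 lower. The share called in a list ran from 26.7% of the assembly genes to 66.7% of the LSM proteins, and the lists hold 7 to 56 tested genes each. Among other proteins of the U1, U2, U4/U6 and U5 snRNPs, 7 of 26 rose and 6 fell, from PPIH, a cyclophilin of the U4/U6 particle (1.24, adjusted p = 0.0142), to SNRNP40 of the U5 particle (-2.88, adjusted p = 0.0160), whose probe passed the background flag on 2 of 5 miR-1225-3p arrays. The LSM proteins are relatives of the Sm proteins, and many, though not all, bind U6 RNA or act in mRNA decay. Of 12 LSM genes 5 rose and 3 fell, from LSM5 (0.64, adjusted p = 0.0181) to LSM12 (-1.81, adjusted p = 0.0345). Of 15 genes that assemble snRNPs 1 rose and 3 fell, namely CLNS1A (1.00, adjusted p = 0.0138), which delivers Sm proteins, at the top and PRMT5 (-1.35, adjusted p = 0.0265), which methylates them, at the bottom.

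Over all genes tested, 17.0% rose and 18.1% fell. Of 7 kinases of SR proteins tested, 2 rose and 2 fell, from CLK4 (0.60, adjusted p = 0.0449) to CLK2 (-1.88, adjusted p = 0.0234). The CLK2 probe passed the background flag on 3 of 5 miR-1225-3p arrays. In the PRP19 complex, the helicases and the second-step factors, 5 of 29 rose and 6 fell, from CWC27 (0.81, adjusted p = 0.0328) to DHX38 (-1.68, adjusted p = 0.0451). Of 56 other regulators and hnRNP-like genes 8 rose and 19 fell, from SRSF8 (1.27, adjusted p = 0.0404) to EWSR1 (-5.02, adjusted p = 0.0208). The SRSF8 probe passed the background flag on 3 of 5 scrambled arrays. The EWSR1 probe passed the background flag on 2 of 5 miR-1225-3p arrays, and another kept probe of EWSR1 had a log2 difference of 0.76. Of 8 proteins of the minor spliceosome 1 rose and 2 fell, from ZCRB1 (0.90, adjusted p = 0.0194) to ZMAT5 (-0.61, adjusted p = 0.0455).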

How the data were processed

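Gene expression was measured in MEG-01 cells on 10 Agilent SurePrint G3 arrays. Scanner files of Agilent Feature Extraction were deposited (version 10.7.3.1 per the file headers, which differs from the version in the methods), and their processed signal is a deposited intensity after background subtraction. The authors also deposited a table of normalized log2 values, used as an alternative. Its array medians were between 4.77 and 5.15, the methods describe its values as relative to a geometric mean of controls, without saying which, and its correlation with the values used here was between 0.981 and 0.998 per array. Columns of other series numbered 0.

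Following the methods, processed signals were put on the log2 scale and all 10 arrays were normalized together by cyclic loess with 3 iterations (R 4.3.3, limma 3.58.1). Control spots (4259) did not enter, values at spots flagged as outliers were removed, and replicate spots were averaged to a probe. No spot was saturated. A probe was kept if at least 3 of 5 arrays of a group had it well above background, which left 20648 of 42405, and the brightest kept probe stood for its gene. Probes were named through RefSeq accessions (GRCh38.p14), which matched 24910 probes. The groups were tested in limma by lmFit and eBayes, with p-values adjusted by Benjamini-Hochberg over 17379 genes and called at 0.05. Precision is limited by the number of arrays. The limma fit was tested on simulated data.

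Every member may be named. Values on each array are given for the 8 called members with the largest falls, the 8 with the largest rises and members whose kept probes disagree, and outside the members the largest called rise and fall of each list are named. SF3B1 and SRSF3 were shown in addition after their values were seen. SF3B4, SF3B5, SF3B6 and PHF5A were named beside the SF3B members. Some marker genes are not reported here by name. The members and the lists were chosen with earlier results of these data known. Alternatives covered scaling, source of the values, background correction by normexp with an offset of 50 on the median signal, filters, choice of probe, test, array weights, slide, replicate block and leaving out each array.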

Additional observations from a re-analysis of the deposited data

Results flagged for a closer look

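In 12 of 80 sets of 5 arrays checked, over called members, members with disagreeing probes and named genes of the lists, the highest or lowest array stood apart from the rest of its group by Dixon's ratio. Chance would give about 4 in 80 if the sets were independent, but the genes share the same arrays, so the counts are descriptive. Of the 12, 9 were on miR-1225-3p replicate 5. On that array the log2 signal was 11.39 for SRSF9, 10.35 for SRSF10, 8.46 for SF3A1, 13.65 for U2AF2, 15.03 for SNRPD2, 10.42 for SNRPD3, 11.66 for PPIH, 7.92 for SNRNP40 and 12.96 for CLNS1A. On scrambled replicate 5 it was 13.34 for HNRNPH1, 9.02 for HNRNPH2 and 13.34 for U2AF2. U2AF2 was thus flagged in both groups, above the other arrays on miR-1225-3p replicate 5 and below them on scrambled replicate 5.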

How the results depend on the processing

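The count of 23 called members (8 higher, 15 lower) was 3 (0 and 3) without normalization between arrays, 12 (5 and 7) without the filter on dim probes, and 0 (0 and 0) within slide 2 and with a replicate block. Without normalization this was 6.5% of members, against 7.3% of all genes. Without the filter it was 26.1% of members, against 3411 of 35267 genes. Within slide 2 and with a replicate block 0 genes were called. In limma with the replicate block, 24 members and 7474 genes had an unadjusted p under 0.05, and within slide 2 it was 1 member and 1220 genes. Replicate numbers did not pair the arrays, with correlations of deviations between same-numbered arrays of -0.217, -0.0756, -0.401, 0.0723 and -0.152. Calls higher were 17 with the 75th percentile, 5 with the mean of kept probes and 12 with array weights. Over all 17379 genes they were 4562, 2782 and 5819 in turn. Array weights called 32 members (69.6%) in either direction, against 12041 of 17379 genes. Calls lower were 8 with the 75th percentile and 10 each with quantile normalization, the methods' t-test, the slide as a block and within slide 1. Over all 17379 genes they were 2585, 2511, 2035, 2679 and 2426 in turn. Leaving out single arrays gave 7 to 30 members called, 5 to 12 higher and 2 to 18 lower. The median log2 fold change of the members was 0.31 with the 75th percentile and stayed below 0 under the other settings. Without miR-1225-3p replicate 5 it was -0.23.

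Among single genes, HNRNPA2B1 (0.04) turned to -0.0633 with the authors' values, -0.00728 with normexp, -0.80 when its kept probes were averaged, -1.64 for its most significant probe, -0.12 with array weights and -0.10 within slide 1. Leaving out single arrays gave HNRNPA2B1 values from -0.0913 (without miR-1225-3p replicate 5) to 0.132 (without scrambled replicate 5), and it was also below 0 without scrambled replicates 1 (-0.08) and 2 (-0.03). HNRNPC (-0.23) turned to 0.36 with the 75th percentile. TRA2B (0.41) turned to -0.11 when its kept probes were averaged and to -0.62 for its most significant probe. The cause was not tested. HNRNPL kept its call in 24 of 26 alternatives, and SNRPD2 and SNRPD3 in 23. Other called members were less stable. SRSF4, HNRNPAB, HNRNPF, HNRNPH1, HNRNPH2, HNRNPK and SF3B3 each kept the call in 10 of 26, SNRPD1 in 11 and SF3A3 in 12.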
